A study of Mus musculus with 9 samples.

Results

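Teneurins, latrophilins and FLRT proteins are adhesion molecules of the neuronal surface that bind one another between cells. The 10 mouse genes described here are the teneurins Tenm1, Tenm2, Tenm3 and Tenm4, the latrophilins Adgrl1, Adgrl2 and Adgrl3, and the FLRT genes Flrt1, Flrt2 and Flrt3, taken by symbol from the 44886 genes of the count tables through GENCODE M21. All 10 had enough reads to be tested, among 16368 tested genes, and their lowest count in any embryo was 138, for Flrt1. The study took RNA from the striatum of 3 mouse brains per condition at E17.5. The 9 libraries, 3 under each of the labels Control, Islet1Cre;Ebf1fl/- and Dlx5/6::Cre;Ebf1fl/-, are taken here as 1 embryo each. Ebf1 encodes a transcription factor of direct pathway striatal projection neurons (dSPN). The mutants carry 1 floxed and 1 null Ebf1 allele together with a Cre driver, and they came from Ebf1+/- males carrying either Islet1Cre or Dlx5/6::Cre and Ebf1fl/fl females. The Islet1Cre driver acts in dSPN and in cholinergic interneurons and the Dlx5/6::Cre driver in every class of striatal projection neuron and interneuron, so that the recombined cells are only a fraction of the dissected tissue, and a larger one with Dlx5/6::Cre. The study used heterozygous embryos as controls, and which allele or driver each control carried is not given in the sources used here. The labels give C57BL/6 as the background of every embryo, while the methods place the Islet1Cre line on B6D2F1/J. Embryos of both mutant groups are called Islet1Cre and Dlx5/6::Cre embryos below, as they were labelled.

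Teneurins are large single-pass membrane proteins whose extracellular part ends in a barrel-shaped domain, and they bind to themselves and to latrophilins on the facing cell. Latrophilins are adhesion G protein-coupled receptors, first found as receptors of a spider toxin, that sit at synapses and also bind FLRTs. FLRTs are leucine-rich repeat proteins that bind latrophilins in adhesion and Unc5 receptors in repulsion, and the combinations of these partners are known for their part in neuron migration, axon targeting and the choice of synaptic partners.

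Members of a family resemble one another closely enough that read assignment between them had to be examined first. The most alike stretches of 75 bases, the length of a read, are shown for the pairs that the comparisons below turn on, with the bases that differ within a pair in capitals. In the coding sequence of GRCm38, Tenm2 and Tenm3, which moved in opposite directions, were most alike at chr11:36051815-36051889 and chr8:48278983-48279057, both on the minus strand and in exon 21 of their transcripts, with 11 differing bases.
Tenm2: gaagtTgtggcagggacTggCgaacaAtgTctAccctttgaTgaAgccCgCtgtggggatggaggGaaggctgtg
Tenm3: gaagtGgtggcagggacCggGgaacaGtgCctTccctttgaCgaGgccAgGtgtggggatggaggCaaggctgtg
Tenm2 and Tenm4 came closest, with 8 differing bases between chr11:36024274-36024348 on the minus strand, in exon 27, and chr7:96895220-96895294 on the plus strand, in exon 31.
Tenm2: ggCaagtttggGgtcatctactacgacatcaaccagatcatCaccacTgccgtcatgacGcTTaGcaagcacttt
Tenm4: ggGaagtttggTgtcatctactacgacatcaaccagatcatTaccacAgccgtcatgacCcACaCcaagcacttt
Adgrl1 and Adgrl2 differed at 9 bases between chr8:83933886-83933960 on the plus strand, in exon 14, and chr3:148837654-148837728 on the minus strand, in exon 12.
Adgrl1: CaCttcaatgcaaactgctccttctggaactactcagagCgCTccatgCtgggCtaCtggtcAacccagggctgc
Adgrl2: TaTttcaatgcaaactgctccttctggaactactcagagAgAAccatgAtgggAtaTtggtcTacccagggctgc
No stretch of 75 bases was shared between members. Flrt1 and Flrt3 each overlap a gene on the opposite strand, Macrod1 and Macrod2, whose mean levels were 2.99 and 55.6 counts-per-million (CPM) beside 8.19 for Flrt1 and 43.0 for Flrt3. The libraries keep the strand of the RNA, but the strand setting of the counting is not given in the sources used here. Neither Flrt1 nor Flrt3 shared a stretch of 75 bases, on either strand, with a transcript of another gene. Whether the overlap affected their counts was not tested, so these 2 members remain uncertain. Other members share stretches of 75 bases with genes outside the families, 7.81% of them in Tenm1, 7.72% in Adgrl3, 7.32% in Adgrl1 and 3.95% in Tenm4. Most of those genes lie on the opposite strand, and an effect on the counts of these members was not tested.

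Libraries held 16548083 to 41507049 counts on genes. Ebf1 was not lower in either mutant (log2 fold change 0.41 and 0.33, with adjusted p-values of 0.599 and 0.399 by edgeR), and since counts cover the whole gene while the deleted part is not given in the sources used here, they do not check the labels. By immunostaining at E17.5, the paper reports that Ebf1 protein was absent from the striatum of both mutants. Striatal projection neuron markers were high in all 9 libraries, with 2842 to 3520 CPM summed over 6 genes, of which 0 passed in Islet1Cre embryos and 1, Foxp1, was lower in Dlx5/6::Cre embryos (651 against 450 CPM, adjusted p = 0.0305), and choroid plexus markers were at most 0.494 CPM. Dlx5/6::Cre replicate 1 stood apart, with 368 CPM of 4 genes of dividing progenitors against 60.9 to 106 in the other 8 libraries. All 3 Dlx5/6::Cre embryos had more RNA of 6 cortical excitatory neuron genes, 78.6 to 183 CPM against 33.0 to 77.9 in controls, with 0 of the 6 genes passing the test, and their 4 direct pathway genes summed to 260 to 322 CPM against 325 to 479 and their 4 microglia genes to 82.6 to 91.9 against 72.4 to 79.2, again with 0 genes passing. Of the 4 direct pathway genes, Tac1, Isl1 and Pdyn had lower means and Drd1, which encodes a dopamine receptor, a higher one, 68.5 CPM against 47.3 in controls and 75.2 in Islet1Cre embryos. In Islet1Cre embryos only the progenitor genes stood apart, at 83.3 to 106 CPM against 60.9 to 81.6, with 0 of 4 passing. The lists for indirect pathway neurons, pallidum, radial glia and astrocytes, the oligodendrocyte lineage, vessels and red blood cells overlapped with controls in both mutants. Islet1Cre replicate 3 and control replicate 3 held both Xist, with 242 and 400 CPM, and the Y-linked Ddx3y, with 19.4 and 1.98 CPM. Each of the other 7 libraries held mostly one of them. Whether the libraries with both hold RNA of 1 embryo each was not tested. Ddx3y had a mean of 0 CPM in Dlx5/6::Cre embryos, against 10.8 in controls and 6.48 in Islet1Cre embryos, and control replicate 2 had 0.108 CPM of Xist. Y-linked RNA was thus not spread evenly over the genotypes, and sex is not in the labels. The part of these differences in the results below was not tested. Results are given without Dlx5/6::Cre replicate 1, Islet1Cre replicate 3 or control replicate 3 where they rest on them.

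In control striatum, Adgrl1 was the most abundant member and Flrt1 the least. Levels of different genes were compared as CPM per kilobase of the union of a gene's exons, and Adgrl1 stood at 84.3 ± 5.89 (SD, n = 3) and Adgrl2 at 19.5 ± 1.799. Tenm2 with 12.4 ± 1.35 and Tenm3 with 10.8 ± 1.73 followed, and their control ranges overlapped. Flrt3 with 9.01 ± 0.988 and Flrt2 with 7.95 ± 0.193 also overlapped, as did Tenm4 with 4.37 ± 0.587 and Adgrl3 with 4.06 ± 0.559. Tenm1 reached 2.14 ± 0.456 and Flrt1 1.32 ± 0.0967. In both mutants Tenm3 stood second, at 26.5 ± 4.11 CPM per kb in Islet1Cre and 27.7 ± 4.23 in Dlx5/6::Cre embryos, above the range of Adgrl2 in the same embryos. Tenm2 came after Flrt3 in Islet1Cre embryos, at 5.96 ± 0.565, and after Flrt3 and Flrt2 in Dlx5/6::Cre embryos, at 5.30 ± 0.680, with ranges that overlapped that of Flrt2 in each. The first and last places of the order were held by Adgrl1 and Flrt1 in all 3 genotypes, by either length. The places between depended on the length used. Divided by the longest transcript, a choice made after seeing the data, Adgrl2 had 45.6 and Adgrl3 10.6 CPM per kb in controls, which put Adgrl3 above Flrt2 with 8.65 and Tenm4 with 6.98. By that length Adgrl2 ranged from 22.9 to 33.7 in Islet1Cre embryos and overlapped with Tenm3, at 25.2 to 34.5, whereas in Dlx5/6::Cre embryos Tenm3 stayed above.

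**Figure D1:**
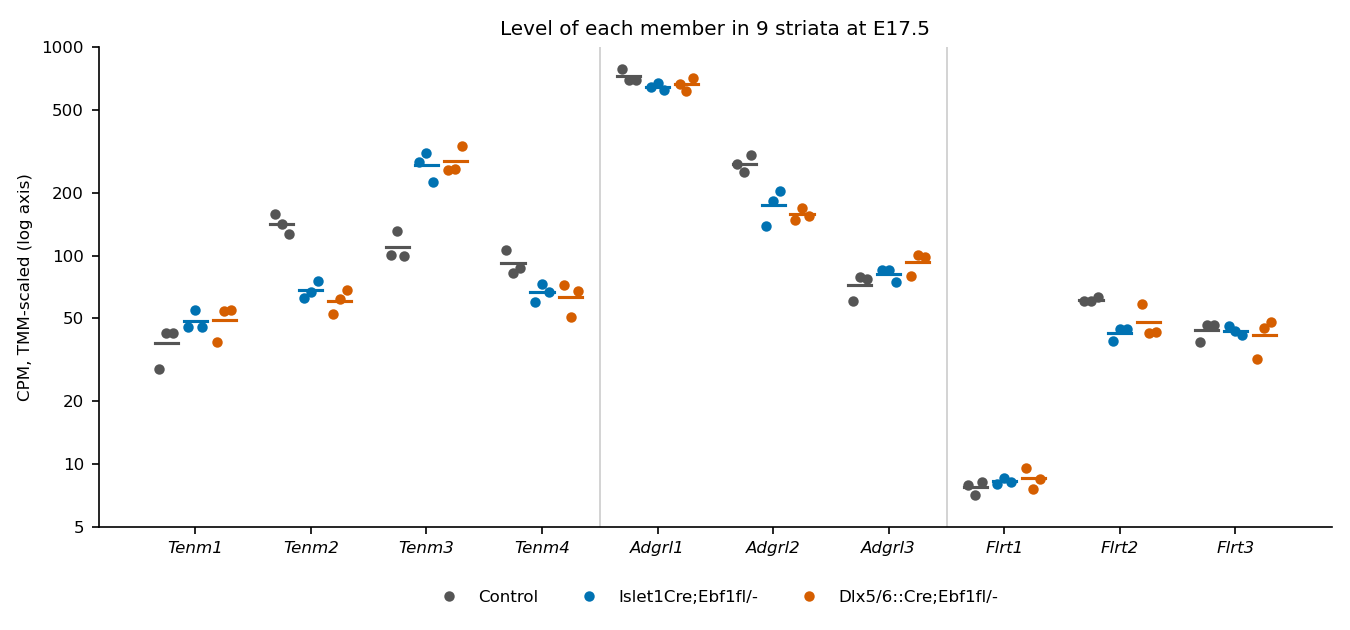
Level of each of the 10 genes in each embryo, in CPM scaled by TMM on a log axis; points are the 3 embryos of a genotype and lines their mean. Tenm2 and Adgrl2 lie lower and Tenm3 higher in all 6 mutant embryos than in the 3 controls, and the 3 genotypes overlap for Flrt1 and Flrt3.

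Each mutant was compared with the controls for the level of these genes, and in both Tenm2 and Adgrl2 were lower and Tenm3 was higher. The Adgrl2 call in Islet1Cre embryos was lost in 7 of the 9 fits that left out 1 embryo. Other differences between the groups, in marker RNA, Y-linked RNA and embryo codes, were not separated from the Ebf1 genotype. Adjusted p-values here are those of edgeR's quasi-likelihood test over all genes, unless DESeq2 is named. At an adjusted p below 0.05, 3 of 10 members passed in Islet1Cre embryos, 2 lower and 1 higher, where 0.971% of all tested genes passed. The same 3 of 10 passed in Dlx5/6::Cre embryos, where 2.39% of all genes did, and 0.898% of all genes passed in the same direction in both comparisons, which share their 3 control embryos. The median size of the log2 change over the members was 0.41 in Islet1Cre and 0.37 in Dlx5/6::Cre embryos, beside 0.11 and 0.15 over all tested genes. The values of the 3 mutant embryos lay wholly outside those of the controls for 7 of 10 members in Islet1Cre embryos, 5 below and 2 above, where this held for 15.2% of all genes. In Dlx5/6::Cre embryos it held for 6 of 10 members, 4 below and 2 above, and for 21% of all genes. In bulk tissue, fewer cells of a type and less RNA per cell cannot be told apart.

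**Figure D2:**
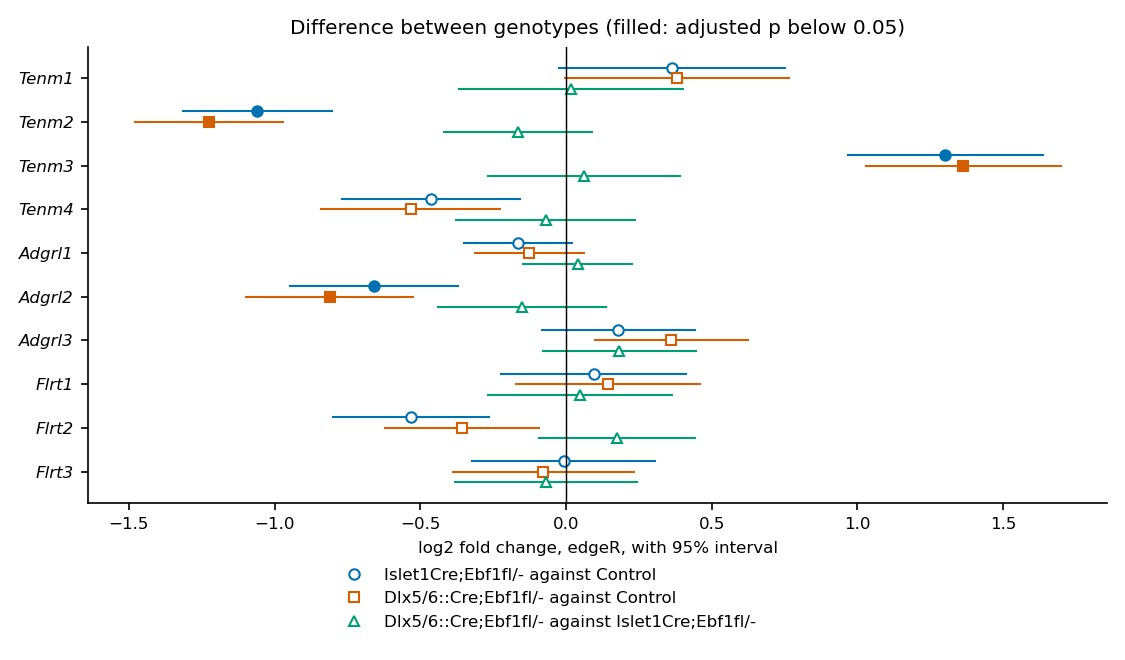
Log2 fold change of each gene in the 3 comparisons between genotypes, with its 95% interval by edgeR; filled symbols passed an adjusted p of 0.05. Tenm2, Tenm3 and Adgrl2 passed in both comparisons with controls, and none of the 10 intervals between the mutants excludes 0.

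Tenm2, a teneurin that binds latrophilin 1 across the synapse, had less than the lowest control value in every mutant embryo. The gene (ENSMUSG00000049336) spans chromosome 11 from 36006656 to 37235964 on the minus strand. It measured 158, 142 and 127 CPM in controls 1 to 3, 62.7, 66.9 and 75.4 CPM in Islet1Cre embryos, and 52.5, 62.1 and 68.0 CPM in Dlx5/6::Cre embryos. No mutant embryo came near the controls, and the mutant groups overlapped one another. The log2 fold change was -1.06 (SE 0.115, 95% interval -1.31 to -0.80, adjusted p = 0.00458) in Islet1Cre embryos. It was -1.23 (95% interval -1.48 to -0.97, adjusted p = 0.00104) in Dlx5/6::Cre embryos, so that the level was 2.08-fold and 2.34-fold lower than in controls in the respective mutants. Leaving out Dlx5/6::Cre replicate 1 gave -1.13 in that mutant, and leaving out Islet1Cre replicate 3 or control replicate 3 gave -1.13 in both cases in the Islet1Cre comparison, each past the threshold. Embryo codes begin with IE or D, and all Dlx5/6::Cre embryos but only 1 control have a D. Among embryos with a D the difference of Tenm2 was -1.06 but did not pass (adjusted p = 0.367), where only 2 genes of the whole table did, and with the prefix as a covariate it was -1.06 and passed (adjusted p = 0.0328).

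Tenm3, a teneurin known for matching presynaptic and postsynaptic partners in hippocampal and visual circuits, was the only member that was higher past the threshold. It lies on chromosome 8 from 48227682 to 48843951 (ENSMUSG00000031561, minus strand). Its level was 100.2, 131 and 99.8 CPM in controls, 280, 309 and 226 CPM in Islet1Cre embryos and 257, 260 and 333 CPM in Dlx5/6::Cre embryos. The lowest mutant value was thus above the highest control value, by more than the range of the controls. Tenm3 was 2.46-fold higher in Islet1Cre embryos (log2 fold change 1.30, SE 0.151, adjusted p = 0.00574) and 2.57-fold higher in Dlx5/6::Cre embryos (1.36, 95% interval 1.03 to 1.70, adjusted p = 0.00188). The difference was 1.43 without Dlx5/6::Cre replicate 1 in that mutant, and in the Islet1Cre comparison 1.42 without Islet1Cre replicate 3 and 1.24 without control replicate 3, all past the threshold. Among embryos with a D code it was 1.504 in Dlx5/6::Cre embryos and did not pass (adjusted p = 0.341), and with the prefix as a covariate it was 1.51 and passed (adjusted p = 0.0487).

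Tenm4, a teneurin needed for oligodendrocyte differentiation, had lower values in all 6 mutant embryos than in any control but did not pass the test. The gene (ENSMUSG00000048078) lies on chromosome 7 from 96171246 to 96911093 on the plus strand. Controls had 106, 82.7 and 87.1 CPM, Islet1Cre embryos 60.0, 72.7 and 67.0 CPM, and Dlx5/6::Cre embryos 72.5, 50.8 and 67.3 CPM. The difference in Islet1Cre embryos was -0.46 on the log2 scale (SE 0.139), with a 95% interval of -0.77 to -0.16 and an adjusted p of 0.243. In Dlx5/6::Cre embryos it was -0.53, from -0.84 to -0.23, with an adjusted p of 0.0819. The second passed with DESeq2 (adjusted p = 0.0117), without a count filter (adjusted p = 0.0108) and without Dlx5/6::Cre replicate 1 (-0.64, adjusted p = 0.0304). Markers of the oligodendrocyte lineage summed to 128 to 164 CPM in controls, 116 to 142 in Islet1Cre and 138 to 200 in Dlx5/6::Cre embryos, overlapping in both comparisons.

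Tenm1, the teneurin on the X chromosome (ENSMUSG00000016150, from 42527866 to 43429126, minus strand), was not called in either mutant. It measured 28.6, 42.5 and 42.6 CPM in controls, 45.3, 55.1 and 45.6 CPM in Islet1Cre embryos and 38.6, 54.4 and 54.96 CPM in Dlx5/6::Cre embryos. Islet1Cre embryos lay just above the controls and Dlx5/6::Cre embryos overlapped them. The log2 fold changes were 0.36 (95% interval -0.02 to 0.75) and 0.38 (95% interval -0.00 to 0.77), with adjusted p = 0.684 and 0.325 by edgeR. Both rested on control replicate 1, the lowest embryo, without which they were 0.20 and 0.21. Y-linked RNA differed between the genotypes as given above, and the part of sex in the level of this X-linked gene was not tested.

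The make-up of the teneurin family, in which each member's CPM per kb was taken as a share of the sum of the 4 teneurins in the same embryo, does not depend on library scaling. Because shares are parts of a whole, here and in the other families, a change in any member moves the shares of the others. Tenm2 made up 45.6, 39.3 and 40.5% of teneurin RNA per length in controls, 14.3, 13.7 and 19.1% in Islet1Cre embryos and 12.97, 14.9 and 13.2% in Dlx5/6::Cre embryos. Tenm3 made up 32.4, 40.6 and 35.6% in controls, 71.5, 70.9 and 64.2% in Islet1Cre embryos, and 71.1, 70.0 and 72.7% in Dlx5/6::Cre embryos. Controls thus had similar shares of both genes, and in every mutant embryo Tenm3 was the majority. Tenm4 had a mean share of 14.8% in controls against 8.29 and 7.86% in the mutants, without overlap, and Tenm1 stayed between 5.33 and 8.78% over all 9 embryos. For Tenm2, Tenm3 and Tenm4 the two-sided exact permutation test gave p = 0.1 against each mutant, the smallest that 3 against 3 embryos allow. The ratio of Tenm3 to Tenm2 per length, chosen after their values were seen and not tested, was 0.711, 1.03 and 0.880 in controls, 4.996, 5.18 and 3.36 in Islet1Cre and 5.48, 4.70 and 5.50 in Dlx5/6::Cre embryos. Summed over the 4 teneurins, 29.7 ± 2.10 CPM per kb in controls stood against 38.4 ± 4.08 in Islet1Cre and 38.8 ± 5.22 in Dlx5/6::Cre embryos (SD, n = 3).

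**Figure D3:**
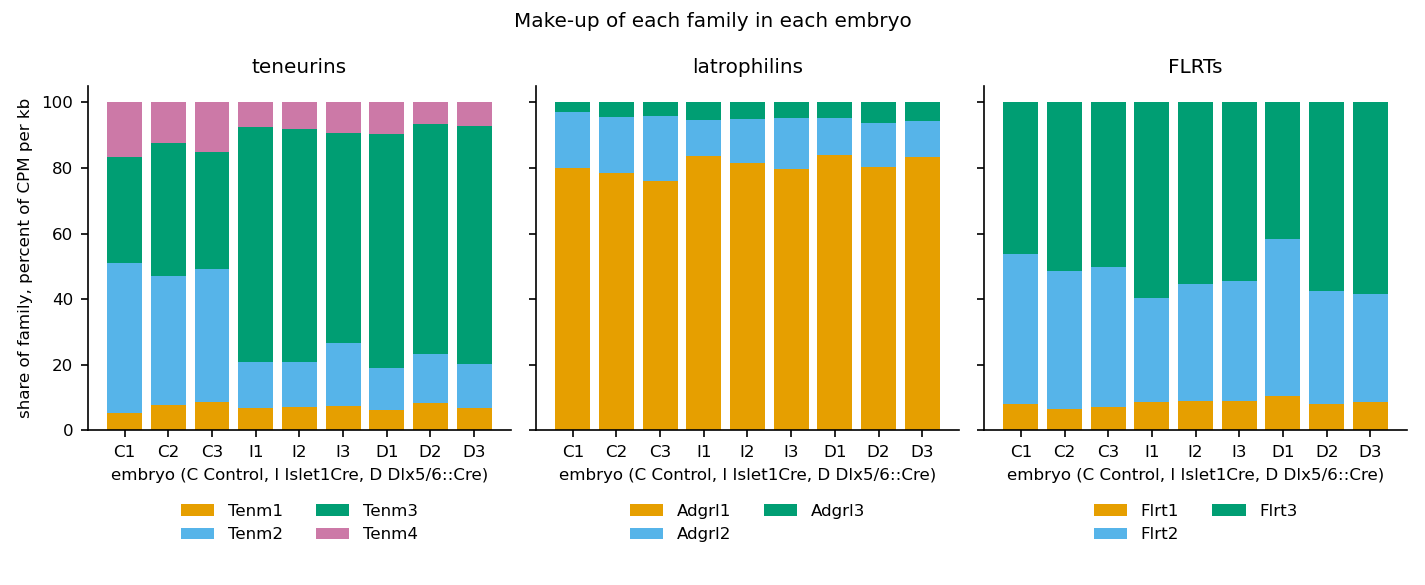
Share of each gene in the summed CPM per kb of its family in each of the 9 embryos (C Control, I Islet1Cre;Ebf1fl/-, D Dlx5/6::Cre;Ebf1fl/-, numbered by replicate), as stacked bars that add to 100%. Tenm3 takes 64.2 to 72.7% of the teneurin bar in mutants against 32.4 to 40.6% in controls, and Adgrl1 takes most of the latrophilin bar in all 9 embryos.

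Among the latrophilins, only Adgrl2 passed the test. Adgrl2 encodes a receptor known from the postsynaptic side of hippocampal synapses and lies on chromosome 3 from 148815583 to 148990555 (ENSMUSG00000028184, minus strand). Its level was 275, 251 and 302 CPM in controls, 138, 182 and 204 CPM in Islet1Cre embryos and 148, 169 and 155 CPM in Dlx5/6::Cre embryos. All 6 mutant values were below the lowest control, with a wider spread in Islet1Cre embryos. Adgrl2 was 1.58-fold lower in Islet1Cre embryos (log2 fold change -0.66, SE 0.130, adjusted p = 0.0434) and 1.76-fold lower in Dlx5/6::Cre embryos (-0.81, 95% interval -1.10 to -0.52, adjusted p = 0.0105). The Islet1Cre call was close to the threshold: it was lost in 7 of the 9 fits that left out 1 embryo, with an adjusted p of up to 0.205 by edgeR (without control replicate 3, difference -0.58), and was kept without Dlx5/6::Cre replicate 1 (adjusted p = 0.0204) and without Islet1Cre replicate 3 (-0.78, adjusted p = 0.0365). The 7 are the fits without each of the 3 controls, Islet1Cre replicate 1 or 2, and Dlx5/6::Cre replicate 2 or 3. In Dlx5/6::Cre embryos the call was kept in all 9 such fits, with -0.77 without replicate 1. With a covariate for the code prefix the differences were -0.59 and -0.94, and neither passed (adjusted p = 0.185 and 0.0886).

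Adgrl1, the latrophilin that binds alpha-latrotoxin, differed little between genotypes. The gene (ENSMUSG00000013033) spans chromosome 8 from 83900105 to 83941954 on the plus strand. It had 782, 692 and 697 CPM in controls, 643, 672 and 621 CPM in Islet1Cre embryos and 665, 617 and 707 CPM in Dlx5/6::Cre embryos. Islet1Cre values lay just below the controls and Dlx5/6::Cre values overlapped them. With 95% intervals of -0.35 to 0.02 and -0.31 to 0.06 around log2 fold changes of -0.17 and -0.13, neither comparison passed (adjusted p = 0.730 and 0.504).

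Adgrl3, a latrophilin of glutamatergic synapses and a partner of FLRT3, did not pass in either mutant. It is found on chromosome 5 from 81020138 to 81825133 (ENSMUSG00000037605, plus strand). Controls had 60.7, 78.6 and 77.1 CPM, Islet1Cre embryos 85.3, 85.0 and 74.7 CPM, and Dlx5/6::Cre embryos 79.7, 100.1 and 98.2 CPM. Dlx5/6::Cre values lay above all controls and Islet1Cre values overlapped them. The difference was 0.18 on the log2 scale in Islet1Cre embryos (adjusted p = 0.888), and 0.36 in Dlx5/6::Cre embryos, from 0.10 to 0.62 at 95% (adjusted p = 0.170). Without control replicate 1, the lowest embryo, the Islet1Cre difference was 0.070. Without Dlx5/6::Cre replicate 1 the difference in that mutant was 0.46 and passed (adjusted p = 0.0439).

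Adgrl1 dominated the latrophilins in each genotype, with 78.1 ± 2.00% of their summed CPM per kb in controls, 81.6 ± 2.07% in Islet1Cre and 82.5 ± 1.89% in Dlx5/6::Cre embryos (SD, n = 3). Adgrl2 contributed 18.1 ± 1.62% in controls, 13.4 ± 2.44% in Islet1Cre and 11.9 ± 1.25% in Dlx5/6::Cre embryos, without overlap, and the exact permutation p was 0.1, the smallest possible, against each mutant. The share of Adgrl3 was 3.79 ± 0.696% in controls, 4.999 ± 0.373% in Islet1Cre and 5.59 ± 0.724% in Dlx5/6::Cre embryos, again without overlap and also with an exact permutation p of 0.1. These shares depended on the length used. By the longest transcript, Adgrl1 had 61.1% in controls, Adgrl2 31.5% in controls, 24.05% in Islet1Cre and 21.6% in Dlx5/6::Cre embryos, and Adgrl3 7.37, 10.1 and 11.3%, so that the change in share of Adgrl2 went from -4.70 to -7.48 percentage points in Islet1Cre and from -6.18 to -9.96 in Dlx5/6::Cre embryos. The summed CPM per kb of the 3 latrophilins was 107.8 ± 5.66 in controls, 92.0 ± 3.40 in Islet1Cre and 93.5 ± 4.84 in Dlx5/6::Cre embryos.

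None of the 3 FLRT genes passed in either mutant by edgeR, and of these Flrt2 came closest. At an unadjusted p below 0.05, Flrt2 was the only FLRT gene in both comparisons, and DESeq2 called Flrt2 in Islet1Cre embryos. Flrt2, a ligand of the repulsive receptor Unc5d, lies on chromosome 12 from 95692226 to 95785215 (ENSMUSG00000047414, plus strand). It measured 60.5, 60.6 and 63.1 CPM in controls, 38.8, 44.4 and 44.2 CPM in Islet1Cre embryos and 58.6, 42.6 and 42.9 CPM in Dlx5/6::Cre embryos. All mutant values lay below the controls, but Dlx5/6::Cre replicate 1, the library rich in progenitor RNA, was next to them. In Islet1Cre embryos the difference was -0.53 on the log2 scale (SE 0.121), from -0.80 to -0.27 at 95%, and its adjusted p was 0.0851. In Dlx5/6::Cre embryos it was -0.36, from -0.62 to -0.09, with an adjusted p of 0.181. Without Dlx5/6::Cre replicate 1 the difference in that mutant was -0.52 and passed (adjusted p = 0.00699), and so did that in Islet1Cre embryos (-0.53, adjusted p = 0.00436), a comparison of the same embryos as before with an SE of 0.0765 in place of 0.121. The Islet1Cre difference also passed by DESeq2 (adjusted p = 0.00587), without a count filter (adjusted p = 0.0134) and in a fit of the 6 embryos alone (adjusted p = 0.0155).

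Flrt1, the least abundant member, and Flrt3, a partner of Adgrl3, showed no difference beyond the spread between embryos. Flrt1 (ENSMUSG00000047787, chromosome 19 from 7092001 to 7105729, minus strand) ran from 7.11 to 8.20 CPM in controls, 7.99 to 8.61 in Islet1Cre and 7.58 to 9.58 in Dlx5/6::Cre embryos. Its differences were 0.10 (95% interval -0.22 to 0.41) and 0.14 (95% interval -0.17 to 0.46). Flrt3 (ENSMUSG00000051379, chromosome 2 from 140650914 to 140671469, minus strand) had 38.3, 46.6 and 46.7 CPM in controls, 46.0, 43.3 and 41.4 CPM in Islet1Cre and 31.9, 44.8 and 47.8 CPM in Dlx5/6::Cre embryos. The lowest value belonged to Dlx5/6::Cre replicate 1, and the other embryos overlapped. Its differences were -0.01 (95% interval -0.32 to 0.31) and -0.08 (95% interval -0.39 to 0.23), the sign of which changed between fits. In the family, Flrt2 made up 43.6 ± 2.06% of the summed CPM per kb in controls, 34.7 ± 2.60% in Islet1Cre and 38.5 ± 8.35% in Dlx5/6::Cre embryos (SD, n = 3, exact permutation p = 0.1 and 0.4). The last group held 1 embryo with a share of 48.1%, replicate 1, and 2 with 34.4 and 33.0%. Flrt1 had the smallest share, 7.24 ± 0.716% in controls against 8.88 ± 0.262% and 9.01 ± 1.19%, without overlap in either comparison. Flrt3 had 49.2 ± 2.73% in controls and 56.5 ± 2.83% in Islet1Cre embryos, without overlap (exact permutation p = 0.1), and 52.5 ± 9.49% in Dlx5/6::Cre embryos, which overlapped (exact permutation p = 0.6). The mean level of Flrt3 itself was 43.9 CPM in controls and 43.6 CPM in Islet1Cre embryos, so its higher share there went with the lower level of Flrt2.

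Dlx5/6::Cre and Islet1Cre embryos were compared directly to ask whether the wider recombination of Dlx5/6::Cre left a mark on these genes. The groups also differ in line background by the methods and in cortical marker RNA, and all Dlx5/6::Cre embryos have a D code. These cannot be told apart from the wider recombination. The paper describes Ebf1 as specific to dSPN and finds no expression of it in striatal interneurons. No member passed by edgeR, none did by DESeq2, and at an unadjusted p below 0.05 there were also 0 of 10. Of all tested genes, 0% passed by edgeR, with 844 below an unadjusted p of 0.05 and 18 passing by DESeq2. The largest differences were 0.18 for Adgrl3 (95% interval -0.08 to 0.44), 0.18 for Flrt2 (-0.09 to 0.44) and -0.17 for Tenm2 (-0.42 to 0.09). For Tenm3 the difference of 0.06 had a 95% interval from -0.27 to 0.39, whose ends are both nearer to 0 than its change from controls in either mutant, and for Adgrl2 it was -0.15 (-0.44 to 0.14). The values of the mutant groups overlapped for all 10 genes.

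The calls of Tenm2 and Tenm3 in Islet1Cre embryos were kept in all 17 alternative fits, and those in Dlx5/6::Cre embryos in 16 of 17, with the embryos of a D code as the exception named above. Over these fits the difference of Tenm2 ran from -1.14 to -0.98 in Islet1Cre and from -1.32 to -1.06 in Dlx5/6::Cre embryos, and that of Tenm3 from 1.20 to 1.44 and from 1.22 to 1.51.

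**Figure D4:**
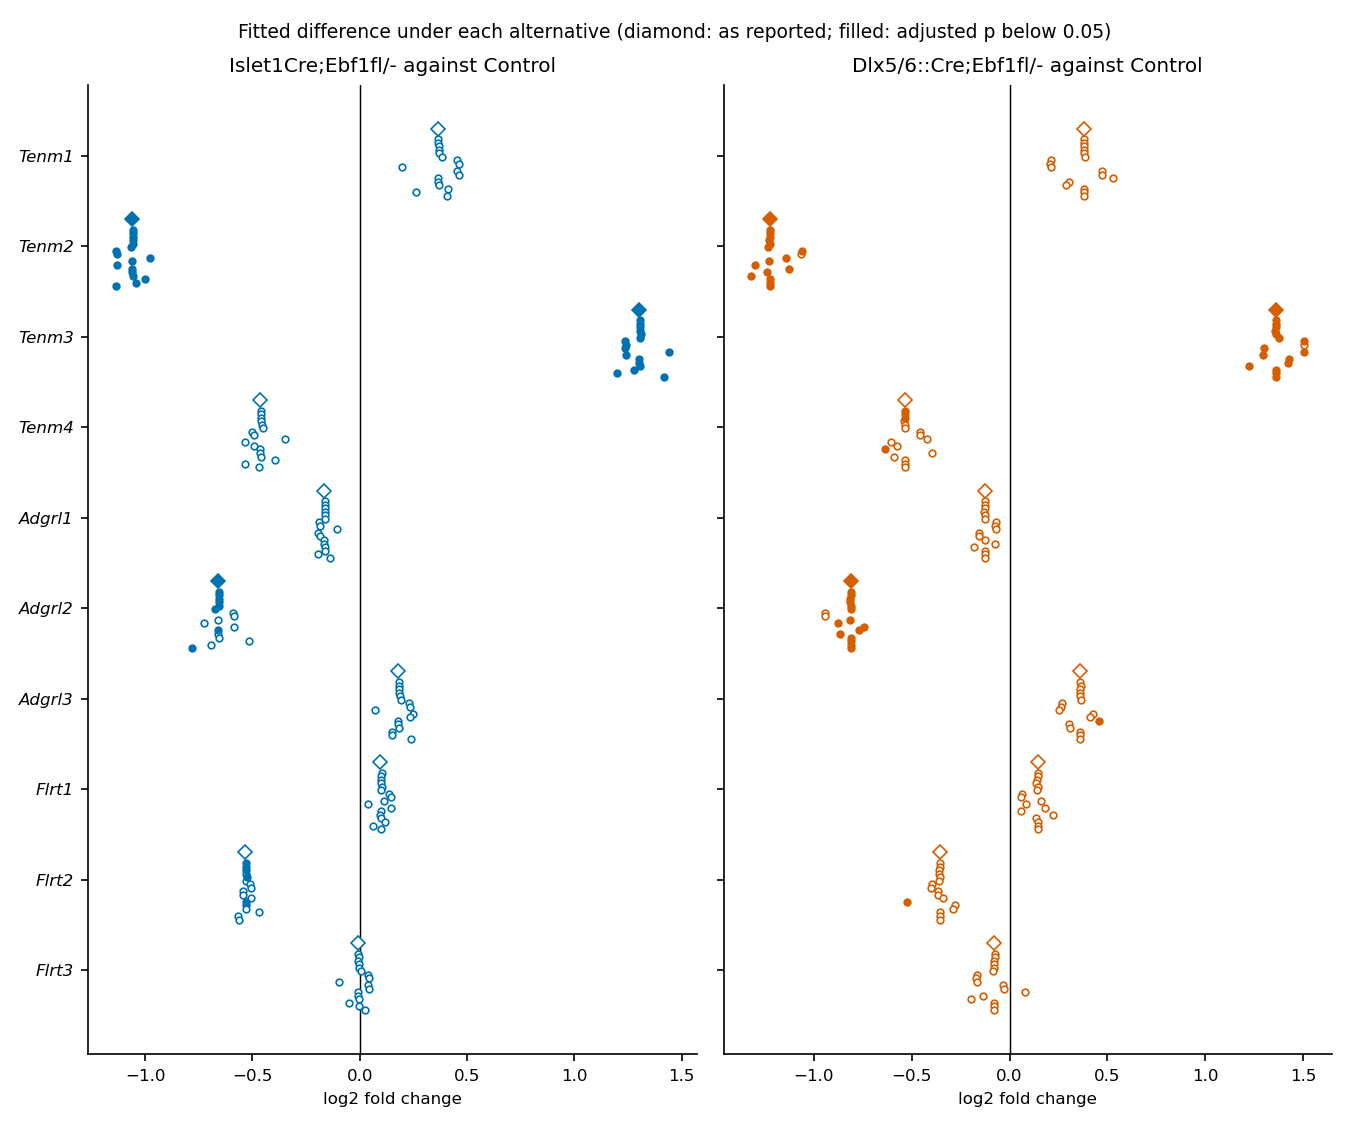
Log2 fold change of each gene against controls in the reported fit (diamond) and in the 17 alternative fits (circles, one below the other for clarity), filled where the adjusted p is below 0.05. Tenm2 and Tenm3 are filled in all fits in Islet1Cre embryos and in all but 1 in Dlx5/6::Cre embryos, whereas Adgrl2 in Islet1Cre embryos has open circles in 9 fits.

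Tenm2 lies on the same chromosome as Ebf1, which spans chromosome 11 from 44617317 to 45008091, and its end is 7.38 Mb from the start of Ebf1. Of the 108 tested protein-coding genes that start within 10 Mb of the start of Ebf1, 2 passed in each comparison, Tenm2 and Ccnjl, a cyclin-like gene which differed by -1.002 on the log2 scale in Islet1Cre (adjusted p = 0.0289) and -0.94 in Dlx5/6::Cre embryos (adjusted p = 0.0224). That is 1.85% of these neighbours in both mutants, beside 0.971% and 2.39% of all tested genes. Tenm2, a member already called above, is itself 1 of the 2, so this percentage is not independent of that call. Between Tenm2 and Ebf1 lie 18 tested protein-coding genes, of which Ccnjl was the 1 called. The median log2 fold change of the 108 neighbours was 0.02 in Islet1Cre and 0.01 in Dlx5/6::Cre embryos.

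**Figure D5:**
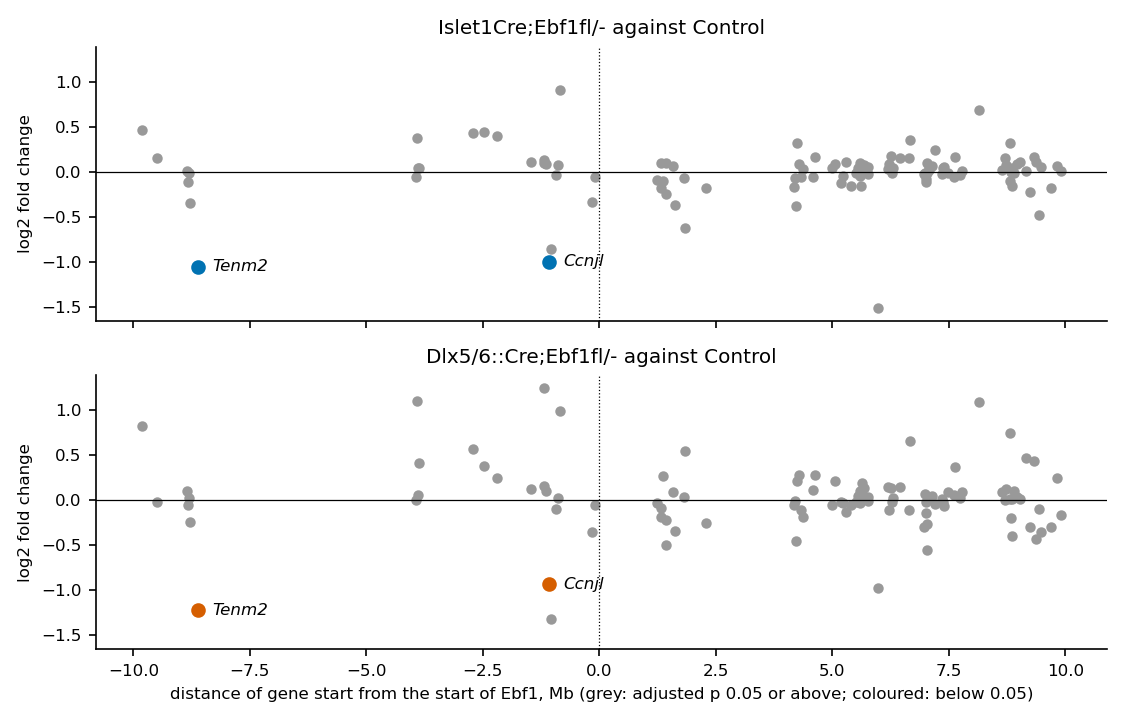
Log2 fold change of the 108 tested protein-coding genes within 10 Mb of the start of Ebf1 on chromosome 11, against the distance of their start from that of Ebf1 in Mb, for Islet1Cre embryos above and Dlx5/6::Cre embryos below; coloured points passed an adjusted p of 0.05. Tenm2 and Ccnjl are the only coloured points in each.

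Of the other partners of these families, 1 passed the test in Dlx5/6::Cre embryos and 0 in Islet1Cre embryos. Of 18 partner genes, 17 were tested, Nrxn2 being listed at no more than 0.0449 CPM in any library. In Islet1Cre embryos 0 of 17 passed by edgeR, with Adgrb2 and Nrxn3 below an unadjusted p of 0.05. Of all 16368 tested genes, 0.971% passed there and 1298 were below an unadjusted p of 0.05. In Dlx5/6::Cre embryos 2.39% passed and 2543 were below it. In Dlx5/6::Cre embryos 1 of 17 passed, Adgrb2, an adhesion G protein-coupled receptor, which was at 407 CPM in controls and 289 CPM in these embryos (log2 fold change -0.50, adjusted p = 0.0203), and 6 of 17 were below an unadjusted p of 0.05, Adgrb2 and Shank3 with lower and Unc5c, Unc5d, Nrxn3 and Adgrb3 with higher means. The Adgrb2 call was lost without control replicate 1 (-0.41, adjusted p = 0.0623), without Dlx5/6::Cre replicate 2 (-0.46, adjusted p = 0.0768), in the 6 embryos alone (adjusted p = 0.0586), with a covariate for the code prefix (-0.41, adjusted p = 0.397) and among embryos with a D code (-0.41, adjusted p = 0.792). The median difference over the 17 partners was 0.01 in Islet1Cre and 0.05 in Dlx5/6::Cre embryos. None of the 6 FLRT receptors (Unc5a, Unc5b, Unc5c, Unc5d, Robo1 and Fgfr1) passed in either comparison. In Dlx5/6::Cre embryos 3 of the 6 lay wholly above the controls, where 21% of all tested genes lay wholly above or below them. Unc5d, the receptor of FLRT2, named here after its values were seen, had 16.0, 12.6 and 9.95 CPM in controls, 12.2, 13.9 and 12.5 CPM in Islet1Cre and 31.7, 19.1 and 16.6 CPM in Dlx5/6::Cre embryos (log2 fold change 0.80, adjusted p = 0.127, and 0.47, adjusted p = 0.179, without replicate 1). The cortical markers above were also higher in Dlx5/6::Cre embryos, and a link with Unc5d was not tested. The tested neurexins and Cntn6, known as other latrophilin ligands or partners, did not pass in either comparison. Nor did the Shank scaffolds that bind latrophilins, or Dag1, which encodes dystroglycan, a teneurin partner.

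Genes whose levels followed the called members most closely over the 9 embryos were sought among 10070 genes with a mean of at least 10 CPM, by Pearson's r of log2 CPM. These coefficients describe libraries that share depth and genotype and carry no test. For Tenm2 they were Grk5, a receptor kinase (r = 0.990), Odc1, the enzyme that starts polyamine synthesis (0.981), the semaphorin receptor gene Plxnd1 (0.980), Ank1 (0.979) and Gpr26 (0.978), all lower in both mutants past the threshold. For Tenm3 they were Klhl29 (0.989), the adhesion gene Sdk1 (0.979), Tmem209 (0.976), the GDNF receptor gene Gfra1 (0.974) and Sorcs3 (0.973), all called higher in both mutants except Tmem209, which passed in Dlx5/6::Cre embryos only (adjusted p = 0.0272, against 0.0712 in Islet1Cre embryos,). Adgrl2 was followed by Pald1 (0.972), Clgn (0.966), Tgfb2 (0.966), the receptor kinase gene Tyro3 (0.965) and the transmembrane collagen gene Col25a1 (0.962), of which Tgfb2 and Col25a1 were called lower in both mutants. Among the members, Tenm2 and Tenm3 had r = -0.93 over the 9 embryos and 0.08 once each genotype's mean was removed, so the relation lay between the genotypes. Tenm1 and Adgrl3 had 0.90 over all embryos and 0.93 within genotypes, and Adgrl3 and Flrt3 0.44 and 0.90. These were picked from all pairs of members. Other pairs came near them within genotypes, such as Tenm1 and Flrt3 (0.84), Tenm4 and Flrt1 (0.82) and, with opposite sign, Flrt2 and Flrt3 (-0.82). Control replicate 1 and Dlx5/6::Cre replicate 1 were the lowest of their genotype for Tenm1, Adgrl3 and Flrt3.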

How the data were processed

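Poly(A) RNA of 9 E17.5 striata was sequenced (TruSeq Stranded mRNA, reads of 75 bases). The authors trimmed and filtered reads, mapped them with STAR 2.4.0k to Ensembl 81 (mm10), removed reads matching more than 1 position and counted the rest per gene with HTSeq-count 0.5.3. The deposited values are these raw counts, without normalization. Removing such reads lowers counts where genes share sequence.

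Genotypes and replicate numbers came from the labels. The counts were fitted with edgeR 4.0.16 in R 4.3.3 (filterByExpr with a minimum count of 10, TMM scaling, 1 quasi-likelihood fit of 9 embryos in 3 genotypes), with Benjamini-Hochberg adjustment over 16368 genes and a threshold of 0.05. SE is the absolute log2 difference over the square root of F. CPM are TMM-scaled, and lengths are unions of exons in GENCODE M21 (GRCm38), which held 44133 of 44886 identifiers. Family shares were compared with exact permutation tests. The fit was tested on simulated data in which 200 genes differed by 1 on the log2 scale in Islet1Cre embryos. It recovered 67% of these genes, and 6.94% of its calls were false. Totals ranged from 16548083 to 41507049 counts. With 3 embryos a genotype, edgeR p-values set differences between genotypes against the spread between these embryos. That spread was estimated from all 9 embryos and drawn toward that of other genes.

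The members, partner and marker lists and the naming rules were chosen with earlier results of these data known: all members, partners past the threshold, protein-coding genes within 10 Mb of Ebf1 passing in both comparisons, and the 5 genes most correlated with each member called in both. Alternatives were DESeq2 1.42.0 and its size factors, other filters, the 6 embryos of a comparison, the replicate block, the embryo code prefix and each embryo left out. Levels by the longest transcript and the alternatives for Adgrb2 and Unc5d were added after seeing the data.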

Additional observations from a re-analysis of the deposited data

How the results depend on the processing

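With 3 embryos a genotype, only differences that are large beside the spread between embryos could pass. Counts per library were lowest for Flrt1, 138 to 367, while the SE was largest for Tenm1, 0.175. The number of members called was 2 to 4 in Islet1Cre embryos in all 17 alternatives, and in Dlx5/6::Cre embryos it was 0 among embryos of 1 code prefix, where 1 control remained and the lone control was assumed to vary like the mutants. Leaving out 1 embryo gave 2 to 4 calls in Islet1Cre embryos and 3 to 6 in Dlx5/6::Cre embryos, the 6 without Dlx5/6::Cre replicate 1 (Tenm2, Tenm4, Adgrl2 and Flrt2 lower, Tenm3 and Adgrl3 higher), and 0 between the mutants. Over all genes, the calls in Islet1Cre and Dlx5/6::Cre embryos were 159 and 392 as reported, 394 and 857 by DESeq2, 311 and 708 with no filter, 259 and 181 in the 6 embryos of a comparison, 61 and 32 with the prefix as a covariate, 169 and 2 in embryos of 1 prefix, and 15 to 397 and 143 to 613 with 1 embryo left out. The cause of these shifts was not tested.

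Replicate numbers are shared between genotypes, but embryos of the same number did not deviate together (mean r = -0.02 over 9 pairs, -0.23 to 0.18). With the replicate block, 3 members passed in Islet1Cre and 3 in Dlx5/6::Cre embryos and 0 between the mutants (143, 363 and 0 genes), and the block changed no call of a member. The difference of Flrt3 in Islet1Cre embryos was 0.0046 with the block.

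Among member differences, signs changed only for ones that passed in no fit. For Flrt3 in Islet1Cre embryos, the prefix as a covariate gave 0.038 and embryos of 1 prefix 0.044, and leaving out 1 embryo gave -0.097 to 0.044; in Dlx5/6::Cre embryos the latter gave -0.20 to 0.080. Between the mutants, the covariate gave -0.24 for Tenm1, 0.074 for Tenm2, 0.044 for Tenm4 and -0.075 for Flrt1. With 1 embryo left out, differences between the mutants were -0.080 to 0.16 for Tenm1, -0.085 to 0.16 for Tenm3, -0.17 to 0.068 for Tenm4, -0.023 to 0.089 for Adgrl1, -0.040 to 0.13 for Flrt1 and -0.20 to 0.088 for Flrt3.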
